A study of Mus musculus with 17 samples.

Results

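Retinoic acid metabolism and response genes were followed in 5 mouse embryonic stem (ES) cell lines. The 8 members were listed by name: Stra6, Dhrs3, Aldh1a2, Crabp1, Crabp2, Rarb, Rarg and Cyp26a1. Each was measured as the sum of its annotated transcripts, and all 8 were among the 19819 genes, of 53693 summed, that passed the filter on low counts. The lines derive from MC1 ES cells of the 129S6/SvEvTac strain and each carries 1 tagged forkhead transcription factor, which gives the line its name (iFoxA1, iFoxC1, iFoxG1, iFoxL2 or iFoxP3), at Rosa26, a locus active in ES cells. Doxycycline (Dox) keeps the transgene off. In the 24 h groups Dox had been washed away and the cells had spent 24 h in a differentiation medium with 10% fetal bovine serum (3 iFoxA1 libraries, 2 for every other line). In the 0 h groups the cells were still in ES medium with 15% serum, 1000 U/ml leukemia inhibitory factor (LIF), 0.2 µg/ml Dox and puromycin (2 iFoxA1 libraries, 1 for every other line). Transgene induction, the change of medium and the elapsed time therefore cannot be told apart in a change between 0 h and 24 h, and all 5 lines carry a transgene. The labels do not say that replicates were separate cultures, so p-values measure only the spread between these libraries, which may be technical. A line with 1 library at 0 h is assumed to vary like the other groups.

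Retinoic acid is made from vitamin A. Cells take up retinol, oxidise it to retinal and then to retinoic acid, bind the acid to small carrier proteins, and destroy it with cytochrome P450 enzymes. In the nucleus the acid binds retinoic acid receptors (RARs), which pair with retinoid X receptors on response elements in DNA. In ES cells retinoic acid is a classical inducer of differentiation, and several members are themselves classical targets of the receptors, Cyp26a1 and Rarb among them.

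The promoters of those 2 genes are shown because each holds a paired receptor half-site next to its start. Promoter windows from RefSeq (build GRCm38.p6, 250 bases before to 50 after a start) were matched by symbol for 7 of the 8 members, 13 windows in all. Each was searched on both strands for tandem pairs of the half-site AGGTCA or its variants AGTTCA or GGGTCA or GGTTCA, in any combination, 5 bases apart (a direct repeat called DR5), and for the same pairs 1 or 2 bases apart. The 250 bases before the start follow, 5′ to 3′ on the gene's strand, with the half-sites in capitals. Cyp26a1 is at chr19:37697558-37697807 on the plus strand, and Rarb is at chr14:16575477-16575726 on the minus strand.
Cyp26a1: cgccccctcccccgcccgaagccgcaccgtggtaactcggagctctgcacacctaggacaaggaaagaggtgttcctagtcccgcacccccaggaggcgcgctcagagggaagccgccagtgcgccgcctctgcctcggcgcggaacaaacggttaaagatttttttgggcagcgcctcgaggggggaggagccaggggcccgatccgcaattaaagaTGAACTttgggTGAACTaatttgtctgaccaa
Rarb: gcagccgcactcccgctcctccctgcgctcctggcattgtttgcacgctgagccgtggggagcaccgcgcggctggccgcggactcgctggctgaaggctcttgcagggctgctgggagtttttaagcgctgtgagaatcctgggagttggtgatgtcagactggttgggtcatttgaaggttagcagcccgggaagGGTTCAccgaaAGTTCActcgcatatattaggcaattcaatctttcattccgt

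With the start counted as 0, the Cyp26a1 repeat lies from -32 to -16 and reads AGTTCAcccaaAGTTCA on the opposite strand. In Rarb the repeat lies from -53 to -37 and reads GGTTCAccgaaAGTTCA on the gene's own strand. A DR5 of these spellings was present in 0.0974% of the 32851 windows of all genes. Pairs 1 and 2 bases apart were in 0.222% and 0.268% of all windows and in no member window. The forkhead core TGTTTAC, searched on both strands, was in 3.65% of all windows and in 1 of the 13 member windows, that of a Dhrs3 start, from -6 to 0. A match is a description of letters and not evidence of binding.

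The 17 libraries held 17.7 to 37.2 M estimated counts. Levels are given as CPM (a count divided by the effective library size in M) and, where genes are set against each other, as TPM (a share of all transcripts that also corrects for length). The 5 deepest libraries are all at 24 h (replicate 3 of iFoxA1, and for each other line replicate 2) and are called the second library set. ES cell markers (10 genes, none at 0 counts in any library) summed to 3662 to 6082 TPM at 24 h and to 5636 to 7147 TPM at 0 h. Foxa1 was at 131, 137 and 21.8 TPM in the 3 iFoxA1 libraries at 24 h, with replicate 3 the low one, against 0.970 and 1.59 TPM at 0 h. Foxl2 was at 78.1 and 2.85 TPM in the iFoxL2 libraries at 24 h, against 0.485 TPM at 0 h, so replicate 2 of that line had little of its factor. Foxc1 (73.7 and 48.1 TPM at 24 h, 0.525 TPM at 0 h) and Foxp3 (184 and 144 TPM at 24 h, 0.533 TPM at 0 h) were high in both 24 h libraries of their lines.

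Per length, Rarg was the most abundant member by far, at a median of 62.4 TPM over the 11 libraries at 24 h and 44.8 TPM over the 6 at 0 h. The binding proteins came next, Crabp2 at medians of 7.38 TPM at 24 h and 5.94 TPM at 0 h and Crabp1 at 5.89 TPM at 24 h and 6.79 TPM at 0 h. Dhrs3 (1.70 TPM at 24 h, 1.93 TPM at 0 h) and Cyp26a1 (1.11 TPM at 24 h, 0.179 TPM at 0 h) were low. Cyp26a1 had the lowest 0 h median of all members, with 0 to 30 counts in a 0 h library. Aldh1a2 (0.627 TPM at 24 h, 0.567 TPM at 0 h), Stra6 (0.316 TPM at 24 h, 0.343 TPM at 0 h) and Rarb (0.0741 TPM at 24 h, 0.272 TPM at 0 h) were near the limit of detection, with as few as 2 Rarb counts in a library. Crabp1 and Crabp2 overlapped in their ranges at both times, so their order is within the spread.

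**Figure D1:**
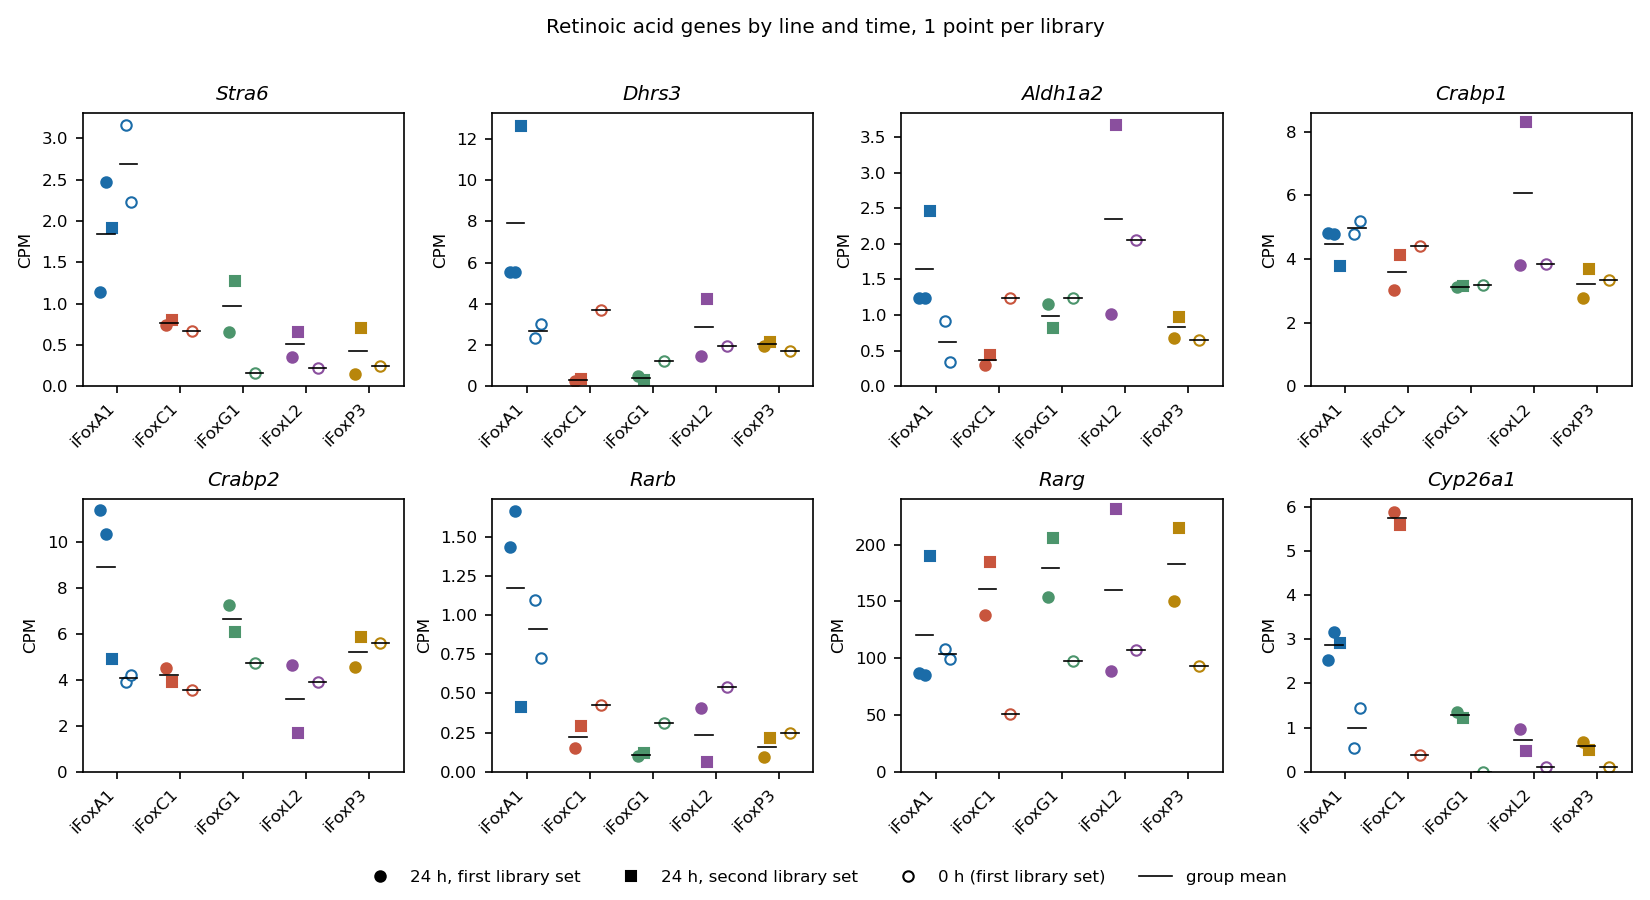
Level of each member in every library (y axis, CPM from 0, with its own scale per gene) by line (x axis), filled symbols at 24 h to the left of open symbols at 0 h; squares are the second library set and lines are group means. Cyp26a1 at 24 h lies above 0 h in all 5 lines, Dhrs3 is highest in iFoxA1 at 24 h (5.54 to 12.7 CPM) and lowest in iFoxC1 at 24 h (0.248 and 0.324 CPM).

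Cyp26a1 and Rarg rose on average over the lines after 24 h, while the changes of the other 6 members did not pass the threshold. Cyp26a1 was above its own line's 0 h level in every 24 h library. Averaged over the 5 lines with equal weight, 2 of the 8 members were called higher and 0 lower by edgeR's quasi-likelihood test at a Benjamini-Hochberg adjusted p under 0.05, against 37.8% of all 19819 genes called (21.7% higher, 16.1% lower). A share of 2 in 8 is below that background. Without both libraries low in their transgene 4 members were called, Crabp2 higher and Dhrs3 lower besides, against 52.8% of all genes under that setting. The members' median change was 0.16 on the log2 scale, and that of all genes was 0.04. In bulk RNA, fewer cells that express a gene and less of its RNA per cell cannot be told apart.

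Cyp26a1 (ENSMUSG00000024987.6, chr19:37697798-37701536, plus strand) encodes the cytochrome P450 enzyme that clears retinoic acid. It was at 5.90 and 5.60 CPM in iFoxC1 at 24 h, against 0.379 CPM at 0 h. In iFoxA1 it was at 2.53, 3.17 and 2.93 CPM at 24 h, against 0.526 and 1.45 CPM at 0 h. In iFoxG1 it was at 1.36 and 1.22 CPM at 24 h, and the 0 h library held 0 counts. These 3 lines had the highest levels at 24 h. In iFoxL2 it was at 0.966 and 0.470 CPM at 24 h, against 0.108 CPM at 0 h. In iFoxP3 it was at 0.677 and 0.488 CPM at 24 h, against 0.0993 CPM at 0 h. Every 24 h library was above every 0 h library of its own line, although across lines the times overlapped: iFoxA1 replicate 2 at 0 h was above both 24 h libraries of iFoxG1, iFoxL2 and iFoxP3, and 5 of 11 libraries at 24 h were above all 6 at 0 h.

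The fitted average change of Cyp26a1 was 3.71 ± 0.38 (log2, SE; edgeR Benjamini-Hochberg adjusted p = 0.000105), and it kept its call without any single library. The 0 counts in iFoxG1 make that size depend on the fit, and with that line at its lower bound the mean of the 5 within-line changes was 2.72 on the log2 scale. Within single lines it rose in iFoxC1 by 3.90 ± 0.72 (log2, SE; edgeR Benjamini-Hochberg adjusted p = 0.0119). Without replicate 2 of iFoxC1 at 24 h the adjusted p of that edgeR test with Benjamini-Hochberg adjustment was 0.0528. In iFoxG1 the 69 counts at 24 h were at least 8.24-fold higher than a floor of 3 counts at 0 h (edgeR Benjamini-Hochberg adjusted p = 0.00932). The iFoxA1 change of 1.53 ± 0.46 (log2, SE) had an edgeR Benjamini-Hochberg adjusted p of 0.0635. In iFoxL2 and iFoxP3, where 0 h held 2 counts each, the ratios of 24 h over 0 h were 6.09 (95% exact counting interval 1.56 to 52.4) and 5.65 (1.44 to 48.8), which cover counting error only. Their edgeR Benjamini-Hochberg adjusted p-values were 0.0998 and 0.101.

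Rarg (ENSMUSG00000001288.15, chr15:102234938-102257517, minus strand) encodes RAR gamma, the receptor most abundant in these libraries. It was at 138 and 185 CPM in iFoxC1 at 24 h, against 50.7 CPM at 0 h. In iFoxG1 it was at 154 and 206 CPM at 24 h, against 97.4 CPM at 0 h, and in iFoxP3 at 151 and 215 CPM at 24 h, against 93.3 CPM at 0 h. The 24 h libraries of these 3 lines were all above 0 h. In iFoxA1 it was at 87.1, 85.5 and 190 CPM at 24 h, against 108.5 and 99.3 CPM at 0 h. In iFoxL2 it was at 88.3 and 232 CPM at 24 h, against 107 CPM at 0 h. In both of these lines the times overlapped, with the second-set library above 0 h and the first-set libraries below it.

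The fitted average change of Rarg was 0.86 ± 0.26 (log2, SE; edgeR Benjamini-Hochberg adjusted p = 0.0286). The call was lost, at edgeR Benjamini-Hochberg adjusted p-values of 0.0508 to 0.107, when any of 7 libraries was left out: iFoxA1 0 h replicate 2, the 0 h library of iFoxC1, iFoxG1 or iFoxP3, or replicate 2 at 24 h of those 3 lines. At 24 h Rarg also differed between the library sets by 0.78 ± 0.15 (log2, SE, second minus first; edgeR Benjamini-Hochberg adjusted p = 0.00914), the only 1 of 8 members to do so, against 20.9% of the 18052 genes tested there (9.46% higher). Second over first set, its CPM ratio within lines was 1.34 to 2.62 and its TPM ratio 0.877 to 1.55. With transcript length as an offset, chosen after seeing the data, the average change was 0.58 (edgeR Benjamini-Hochberg adjusted p = 0.0575). In the first set alone, where 2 residual degrees of freedom remain, it was 0.45 (edgeR Benjamini-Hochberg adjusted p = 2.41e-06), and the iFoxA1 change had the opposite sign at -0.25 (edgeR Benjamini-Hochberg adjusted p = 0.00371).

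**Figure D2:**
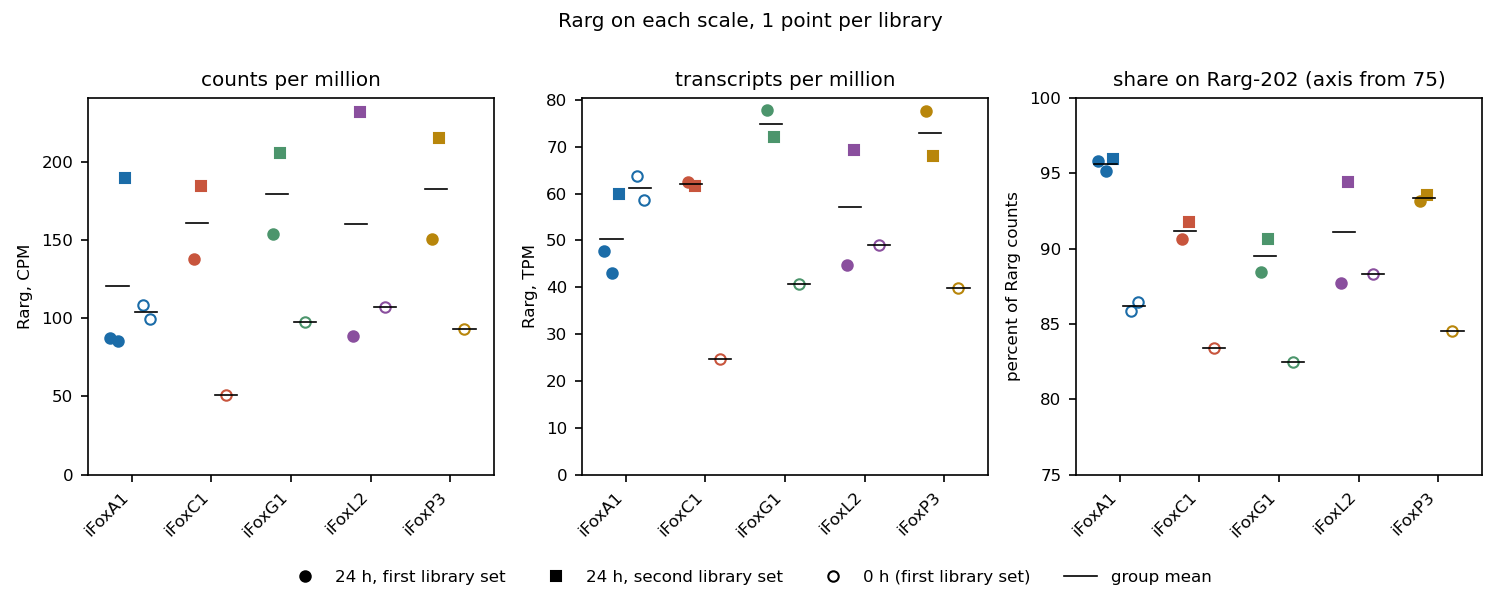
Rarg in every library as CPM, as TPM, and as the share of its counts on the transcript Rarg-202 (y axes; the last axis starts at 75%), by line (x axis), 24 h left of 0 h. The spread between circles and squares at 24 h is wider in CPM than in TPM, and the share is 87.7% to 95.9% at 24 h and 82.5% to 88.3% at 0 h.

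Most Rarg counts were assigned to Rarg-202, a protein-coding transcript of 8 exons that starts inside the gene at position 102246500. It took 92.5% ± 2.87 of Rarg counts at 24 h (SD, n = 11) and 85.2% ± 2.15 at 0 h (SD, n = 6). Rarg-201, with 10 exons and an upstream start at 102257517, took 2.31% to 11.5% at 24 h and 7.95% to 14.8% at 0 h. The Rarg-202 share was above 0 h in every 24 h library of 4 lines, and in iFoxL2 replicate 1 was below 0 h (87.7% against 88.3%) and replicate 2 above it (94.5%). Averaged over lines the share was 7.19 percentage points higher at 24 h. At 24 h the second-set library had a higher share than the first-set libraries in each of the 5 lines, and all 0 h libraries are in the first set. First-set libraries alone held 87.7% to 95.8% at 24 h. This share was chosen for description after its values were seen, so no p-value is given for it. It rests on the authors' estimated assignment of shared reads to transcripts.

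Dhrs3, a retinal reductase that turns retinal back into retinol (ENSMUSG00000066026.14, chr4:144892827-144928209, plus strand), fell in iFoxC1 and lay above 0 h in every 24 h library of iFoxA1. It was at 0.248 and 0.324 CPM in iFoxC1 at 24 h, against 3.70 CPM at 0 h. In iFoxG1 it was at 0.503 and 0.290 CPM at 24 h, against 1.23 CPM at 0 h. Both lines had less Dhrs3 in each 24 h library than at 0 h. In iFoxA1 it was at 5.55, 5.54 and 12.7 CPM at 24 h, against 2.34 and 3.00 CPM at 0 h. In iFoxP3 it was at 1.94 and 2.17 CPM at 24 h, against 1.69 CPM at 0 h, and in iFoxL2 at 1.47 and 4.23 CPM at 24 h, against 1.95 CPM at 0 h. All iFoxA1 and iFoxP3 libraries at 24 h were above 0 h, and those of iFoxL2 lay on both sides of it.

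On average over the lines Dhrs3 had a log2 change of -0.58 ± 0.29 (SE, edgeR Benjamini-Hochberg adjusted p = 0.149). The value was -0.86 in the first library set alone (edgeR Benjamini-Hochberg adjusted p = 0.00180) and, averaged over the other 4 lines without the iFoxC1 0 h library, 0.19 (edgeR Benjamini-Hochberg adjusted p = 0.708). Within iFoxC1, 2 of 8 members were called, Cyp26a1 higher and Dhrs3 lower, against 9.70% of all genes (6.23% higher, 3.47% lower). Dhrs3 fell by 3.65 ± 0.70 there (log2, SE; edgeR Benjamini-Hochberg adjusted p = 0.0134). Without either 24 h library of iFoxC1 the edgeR Benjamini-Hochberg adjusted p was 0.0720 (replicate 1 left out) or 0.0848 (replicate 2 left out). Within iFoxG1, 1 of 8 members was called (Cyp26a1, higher), against 5.63% of all genes (3.34% higher). Dhrs3 in iFoxG1 had a log2 change of -1.65 ± 0.71 (SE, edgeR Benjamini-Hochberg adjusted p = 0.219), and in iFoxA1 one of 1.57 ± 0.53 (SE, edgeR Benjamini-Hochberg adjusted p = 0.0942).

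Within iFoxA1, iFoxL2 and iFoxP3, 0 of 8 members were called, against 10.8%, 4.24% and 6.04% of all genes. At an unadjusted edgeR p under 0.05, those 3 lines had 3, 1 and 1 members, against 24.8%, 20.3% and 22.2% of all genes at that threshold. DESeq2 called 2 members in iFoxA1 (Cyp26a1 and Dhrs3) and 0 in the other two, against 14.9%, 11.5% and 14.9% of all genes. The 5 changes of Dhrs3 did not differ past the threshold (F test over line changes, edgeR Benjamini-Hochberg adjusted p = 0.0845), nor did those of Cyp26a1 (edgeR Benjamini-Hochberg adjusted p = 0.180). That F test called 0 of 8 members, against 0.984% of all genes, with 2 members at an unadjusted p under 0.05 (14.1% of all genes) and 1 (Dhrs3) called by DESeq2 (10.1% of all genes). Without both libraries low in their transgene, it called Crabp2, Dhrs3 (edgeR Benjamini-Hochberg adjusted p = 0.00313) and Rarg, against 20.9% of all genes under that setting.

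**Figure D3:**
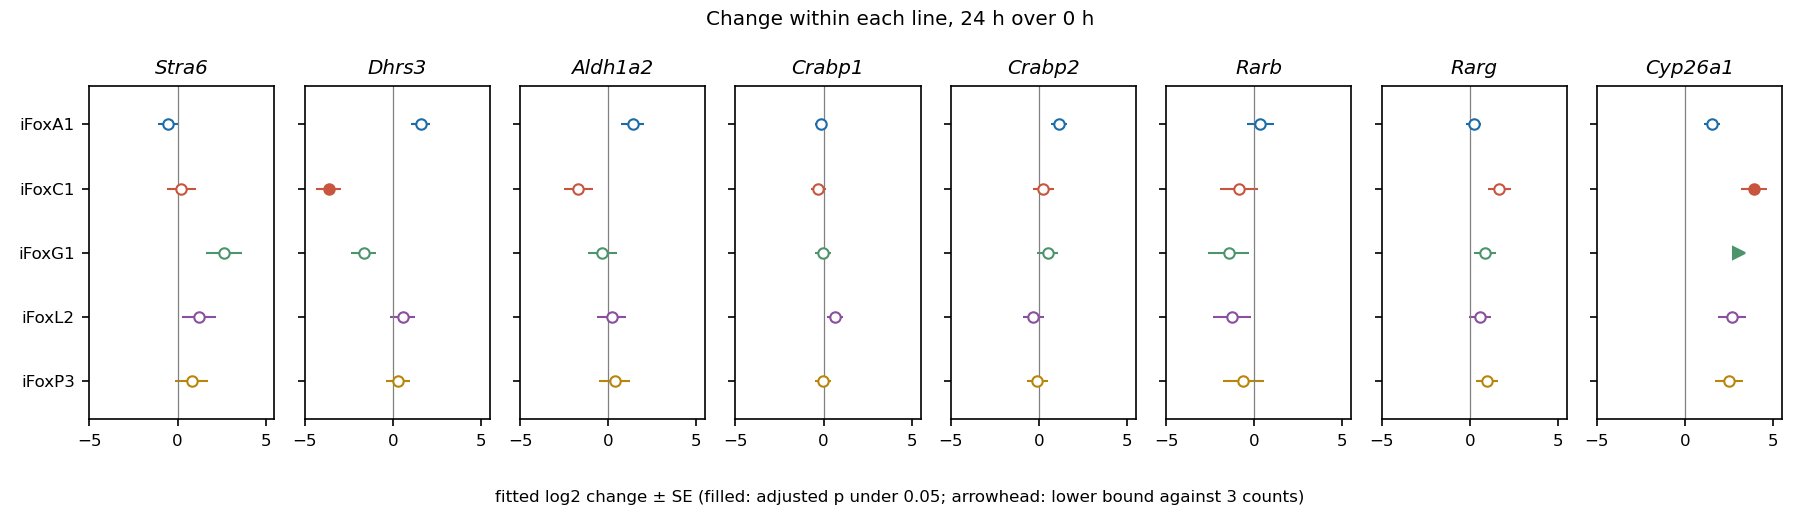
Fitted log2 change, 24 h over 0 h, with its SE (x axis) for each member (panels) and line (y axis); filled points have an adjusted p under 0.05, and the arrowhead is the lower bound of 3.04 for Cyp26a1 in iFoxG1. Dhrs3 lies at -3.65 in iFoxC1 and at 1.57 in iFoxA1, while Cyp26a1 is above 0 in all 5 lines.

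Stra6 (ENSMUSG00000032327.14, chr9:58063788-58153996, plus strand) encodes the membrane receptor through which cells take up retinol. It was at 1.14, 2.47 and 1.92 CPM in iFoxA1 at 24 h, against 3.16 and 2.23 CPM at 0 h, and iFoxA1 had more of it than any other line at 0 h. In the other lines it ran from 0.145 to 1.28 CPM at 24 h and from 0.154 to 0.664 CPM at 0 h. In iFoxG1 the ratio of 24 h over 0 h was 6.81 (95% exact counting interval 2.22 to 34.0), from 57 counts at 24 h and 3 at 0 h, with an edgeR Benjamini-Hochberg adjusted p of 0.172. The average change was 0.86 ± 0.39 (log2, SE; edgeR Benjamini-Hochberg adjusted p = 0.111). With 3 to 66 counts per library, the shares of single Stra6 transcripts ran from 0% to 100% and are not compared. At its 5′ side Stra6 overlaps Ccdc33 on the opposite strand (at most 23 counts).

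Aldh1a2, the retinaldehyde dehydrogenase that makes retinoic acid in the early embryo (ENSMUSG00000013584.5, chr9:71215789-71296243, plus strand), had an average change of -0.02 ± 0.34 (log2, SE; edgeR Benjamini-Hochberg adjusted p = 1.00). In iFoxC1 it was at 0.297 and 0.442 CPM at 24 h, against 1.23 CPM at 0 h, with a log2 change of -1.70 ± 0.82 (SE, edgeR Benjamini-Hochberg adjusted p = 0.228). In iFoxA1 it was at 1.24, 1.24 and 2.45 CPM at 24 h, against 0.909 and 0.339 CPM at 0 h, with a log2 change of 1.40 ± 0.65 (SE, edgeR Benjamini-Hochberg adjusted p = 0.222). The sides that libraries took in these 2 lines were those taken by Dhrs3. The highest single level, 3.67 CPM, was in iFoxL2 replicate 2 at 24 h, the library with little of its transgene.

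Neither of the 2 cellular retinoic acid binding proteins had a called change with time. Crabp1 (ENSMUSG00000032291.8, chr9:54764748-54773110, plus strand) had a lowest, median and highest level of 2.76, 3.78 and 8.31 CPM at 24 h, against 3.19, 4.12 and 5.18 CPM at 0 h. Its average change was 0.03 ± 0.19 (log2, SE; edgeR Benjamini-Hochberg adjusted p = 0.946). Crabp2 (ENSMUSG00000004885.5, chr3:87948666-87953376, plus strand), which carries retinoic acid to the receptors, was at 11.4, 10.4 and 4.91 CPM in iFoxA1 at 24 h, against 3.92 and 4.21 CPM at 0 h. Elsewhere it ran from 1.66 to 7.25 CPM at 24 h and from 3.56 to 5.61 CPM at 0 h. Replicate 3 of iFoxA1, low in Foxa1, had the least Crabp2 of the 3 libraries, and iFoxL2 replicate 2, low in Foxl2, had the lowest level of all. The average change of Crabp2 was 0.29 ± 0.26 (log2, SE; edgeR Benjamini-Hochberg adjusted p = 0.414). Without both libraries low in their transgene it was 0.46 (edgeR Benjamini-Hochberg adjusted p = 0.00504), and the iFoxA1 change was 1.41 (edgeR Benjamini-Hochberg adjusted p = 0.00103).

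Rarb (ENSMUSG00000017491.9, chr14:16430839-16819156, minus strand) encodes RAR beta. It had 2 to 31 counts per library, and its 3′ part overlaps Top2b on the opposite strand (up to 3008 counts). The libraries were strand-specific, but whether the counting used strand is not stated. In iFoxA1 it was at 1.44, 1.67 and 0.414 CPM at 24 h, against 1.10 and 0.726 CPM at 0 h. In the other 4 lines it ran from 0.0627 to 0.407 CPM at 24 h and from 0.248 to 0.541 CPM at 0 h. In CPM every 24 h library of these lines was below 0 h of its own line. In TPM iFoxL2 replicate 1 at 24 h was above 0 h (0.237 against 0.215 TPM). The average change was -0.78 ± 0.47 (log2, SE; edgeR Benjamini-Hochberg adjusted p = 0.227). With so few counts, the lack of a call cannot show whether Rarb changed. Its promoter holds a DR5, and a link between a DR5 and RNA level was not tested.

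At 0 h, before Dox was withdrawn, the lines did not differ past the threshold in any of the 8 members, against 0.494% of all genes called (edgeR F test, Benjamini-Hochberg adjusted). At an unadjusted p under 0.05, 2 members differed, Cyp26a1 (edgeR Benjamini-Hochberg adjusted p = 0.0736) and Stra6 (edgeR Benjamini-Hochberg adjusted p = 0.152), against 12.0% of all genes at that threshold. DESeq2 called both, against 8.06% of all genes. Both were highest at 0 h in iFoxA1.

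At 24 h, 2 of 8 members differed among the 5 lines, against 13.1% of all genes: Dhrs3 (edgeR F test, Benjamini-Hochberg adjusted p = 0.00262) and Cyp26a1 (edgeR F test, Benjamini-Hochberg adjusted p = 0.00586). Rarb was short of the threshold (edgeR F test, Benjamini-Hochberg adjusted p = 0.0672) but passed it by DESeq2 (Benjamini-Hochberg adjusted p = 0.0126, with 22.0% of all genes called), with the replicate block (0.0322), without both libraries low in their transgene (0.00408) and in the first library set (0.00191). By library ranges, Cyp26a1 ran in the order iFoxC1 (5.60 to 5.90 CPM), iFoxA1 (2.53 to 3.17), iFoxG1 (1.22 to 1.36), then iFoxL2 (0.470 to 0.966) and iFoxP3 (0.488 to 0.677), which overlapped. Dhrs3 ran in the order iFoxA1 (5.54 to 12.7 CPM), then iFoxL2 (1.47 to 4.23) and iFoxP3 (1.94 to 2.17), which overlapped, then iFoxG1 (0.290 to 0.503) and iFoxC1 (0.248 to 0.324), which overlapped too. iFoxC1, the highest line in Cyp26a1, was thus 1 of the pair lowest in Dhrs3.

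Against the mean of the 4 other lines at 24 h, iFoxA1 had 4 of 8 members higher and 0 lower, against 15.1% of all genes called (8.88% higher). The members' median difference was 1.03 on the log2 scale, against 0.01 for all genes. Rarb, Stra6 and Cyp26a1, 3 of the 4, were already highest in iFoxA1 at 0 h, at means of 0.913, 2.69 and 0.989 CPM. The highest other line at 0 h was at 0.541, 0.664 and 0.379 CPM, and these 0 h differences were not called. Dhrs3 was not highest in iFoxA1 at 0 h (mean 2.67 CPM, against 3.70 CPM in iFoxC1). Dhrs3 was higher in iFoxA1 by 3.12 ± 0.35 (log2, SE; edgeR Benjamini-Hochberg adjusted p = 0.000433), and without any single library it stayed past the threshold. Rarb was higher by 2.71 ± 0.55 (edgeR Benjamini-Hochberg adjusted p = 0.00998). Its edgeR Benjamini-Hochberg adjusted p was 0.0523 without iFoxA1 replicate 1 at 24 h and 0.0602 without replicate 2.

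Stra6 was higher in iFoxA1 by 1.52 ± 0.42 (edgeR Benjamini-Hochberg adjusted p = 0.0389) and Cyp26a1 by 1.12 ± 0.30 (edgeR Benjamini-Hochberg adjusted p = 0.0363). Both calls were fragile, each lost in 9 of 17 runs that left out a library. For Cyp26a1 these were every 24 h library of iFoxA1, iFoxC1, iFoxG1 and iFoxP3 (edgeR Benjamini-Hochberg adjusted p = 0.0521 to 0.134). For Stra6 they were every iFoxA1 library at either time, both iFoxC1 libraries at 24 h, and replicate 1 of iFoxG1 and of iFoxL2 at 24 h (edgeR Benjamini-Hochberg adjusted p = 0.0527 to 0.175). Without the filter on low counts neither passed (edgeR Benjamini-Hochberg adjusted p = 0.0735 for Cyp26a1 and 0.0545 for Stra6), and neither did without both libraries low in their transgene (edgeR Benjamini-Hochberg adjusted p = 0.0530 and 0.0512). The Crabp2 difference was 0.94 ± 0.31 (edgeR Benjamini-Hochberg adjusted p = 0.0761), and without those libraries it was 1.08 (edgeR Benjamini-Hochberg adjusted p = 0.000796).

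Markers of primitive and visceral endoderm, extraembryonic cell types that ES cultures can hold, had larger sums in iFoxA1. The 12 listed genes summed to 25.1 to 80.9 TPM in iFoxA1 at 24 h and to 2.98 to 19.5 TPM in the other lines at 24 h. At 0 h the sum was 50.5 and 51.3 TPM in iFoxA1 and 2.30 to 2.73 TPM in the other lines. The 25.1 TPM was in iFoxA1 replicate 3, low in Foxa1, which lay below both iFoxA1 libraries at 0 h and had the most Dhrs3 (12.7 CPM). Dab2 (up to 31.5 TPM) and Gata6 (up to 16.0 TPM) led at 24 h, while Afp and Ttr were at 0 counts in 6 and 10 of the 17 libraries. Over all lines, the highest level of Gata4, Sox17, Sox7, Foxa2 and Pdgfra was lower at 24 h than at 0 h. That of the other listed genes, Dab2 and Gata6 among them, was higher. The 7 fibroblast markers summed to 11.0 to 14.1 TPM in iFoxA1 and 3.22 to 13.0 TPM in the other lines at 24 h, and to 6.00 to 6.67 TPM in iFoxA1 and 1.84 to 2.87 TPM in the other lines at 0 h. The sums of the neural and the primitive streak lists in iFoxA1 lay within the range of the other lines at 24 h. The part of such cells in the higher Dhrs3, Rarb, Stra6 and Cyp26a1 of iFoxA1 was not tested.

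iFoxC1 had 2 of 8 members called against the other lines at 24 h, against 3.69% of all genes (2.41% higher, 1.28% lower). Cyp26a1 was higher by 2.37 ± 0.32 (log2, SE; edgeR Benjamini-Hochberg adjusted p = 0.00376) and Dhrs3 was lower, with a difference of -2.81 ± 0.56 (edgeR Benjamini-Hochberg adjusted p = 0.0250). Leaving out iFoxC1 replicate 1 or 2 at 24 h ended both calls, with edgeR Benjamini-Hochberg adjusted p-values of 0.0549 to 0.0676 for Cyp26a1 and 0.242 to 0.259 for Dhrs3. Dhrs3 also lost its call without replicate 1 of iFoxG1 or of iFoxP3 at 24 h (edgeR Benjamini-Hochberg adjusted p = 0.0531 and 0.0516) and with transcript length as an offset (edgeR Benjamini-Hochberg adjusted p = 0.0678).

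iFoxG1, iFoxL2 and iFoxP3 had 0 of 8 members called against the others, against 2.74%, 1.63% and 0.555% of all genes (edgeR, Benjamini-Hochberg adjusted). At an unadjusted p under 0.05 they had 1, 5 and 1 members, against 13.0%, 17.1% and 9.42% of all genes. DESeq2 called 1 in each (Dhrs3 in iFoxG1, Cyp26a1 in iFoxL2 and in iFoxP3), against 5.69%, 7.08% and 2.83% of all genes. Dhrs3 in iFoxG1 differed by -2.29 ± 0.54 (log2, SE; edgeR Benjamini-Hochberg adjusted p = 0.0616). Cyp26a1 differed by -1.40 ± 0.42 in iFoxL2 (edgeR Benjamini-Hochberg adjusted p = 0.137) and by -1.76 ± 0.43 in iFoxP3 (edgeR Benjamini-Hochberg adjusted p = 0.141).

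**Figure D4:**
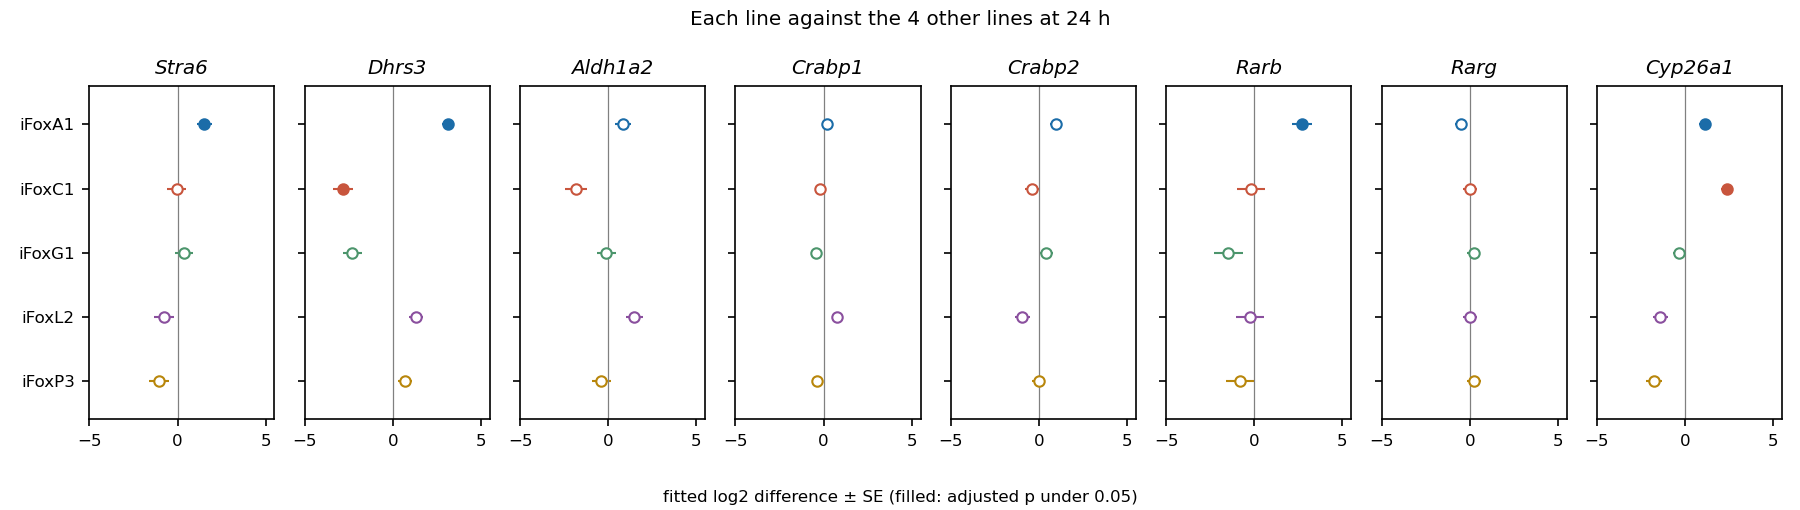
Fitted log2 difference with its SE (x axis) between each line and the mean of the 4 others at 24 h, for each member (panels) and line (y axis); filled points have an adjusted p under 0.05. iFoxA1 has 4 filled points, all above 0, and iFoxC1 has 2, Cyp26a1 at 2.37 and Dhrs3 at -2.81.

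Of 50 further genes of the pathway, 48 were matched by symbol and 40 passed the filter. In the average change 13 of these rose and 6 fell (edgeR, Benjamini-Hochberg adjusted), against 21.7% of all genes higher and 16.1% lower. Their changes did not differ among the lines past the threshold, and those of only 0.984% of all genes did. Their median change was 0.25 on the log2 scale, against 0.04 for all genes. The counts by role that follow are to be read against the same shares of 21.7% and 16.1%. Among 9 genes of retinol and retinal handling 0 rose and 2 fell. Rdh13, a mitochondrial retinol dehydrogenase, fell by 0.80 ± 0.07 (log2, SE; edgeR Benjamini-Hochberg adjusted p = 4.40e-05), to 24.0 to 33.2 CPM at 24 h, against 43.3 to 53.2 CPM at 0 h. Rdh14, a retinol dehydrogenase, fell by 0.41 ± 0.14 (edgeR Benjamini-Hochberg adjusted p = 0.0476), but kept its call in 3 of 17 runs without a library. Of the other 2 retinaldehyde dehydrogenases Aldh1a3 fell by 1.22 ± 0.35 (edgeR Benjamini-Hochberg adjusted p = 0.0221), to 1.79 to 13.9 CPM at 24 h, against 10.1 to 23.0 CPM at 0 h. At 24 h Aldh1a3 also differed between the library sets by -1.22 ± 0.23 (log2, SE, second minus first; edgeR Benjamini-Hochberg adjusted p = 0.0100), and in the first set alone its average change was -0.81 (edgeR Benjamini-Hochberg adjusted p = 3.41e-05). Over both sets without the iFoxL2 0 h library, the Aldh1a3 average change had an edgeR Benjamini-Hochberg adjusted p of 0.0700. Aldh1a1 was at a mean of 0.258 CPM at 24 h and 0.0894 CPM at 0 h.

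Of the other P450 enzymes Cyp26b1 and Cyp26c1 did not pass the filter, with means of 0.270 and 0.0745 CPM at 24 h and of 0.132 and 0.0396 CPM at 0 h. Fabp5, a fatty acid binding protein that can also carry retinoic acid, rose on average by 0.61 ± 0.09 (log2, SE; edgeR Benjamini-Hochberg adjusted p = 0.000669). In iFoxC1 it lay on both sides of 0 h, at 20.3 and 24.15 CPM at 24 h, against 22.1 CPM at 0 h. The 24 h libraries of the other lines were all above 0 h of their own line. Among the 5 other receptors 3 rose and 0 fell. Rxrg, which encodes retinoid X receptor gamma, was at 0.627 to 1.71 CPM at 24 h, against 0 to 0.242 CPM at 0 h, with an edgeR Benjamini-Hochberg adjusted p of 2.10e-05. Its fitted change depends on the 0 counts of the iFoxC1 library at 0 h and is not given. Among 7 cofactors 5 rose and 0 fell. Not all 5 are coactivators. Among them were the coactivators Ncoa2 (0.58 ± 0.13, log2, SE; edgeR Benjamini-Hochberg adjusted p = 0.00572) and Ncoa7 (0.43 ± 0.10, edgeR Benjamini-Hochberg adjusted p = 0.00856). Ncoa7 in iFoxA1 lay the other way, at 8.83, 7.95 and 10.6 CPM at 24 h, against 11.3 and 10.6 CPM at 0 h.

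Of 15 known target genes of retinoic acid tested, 4 rose and 3 fell, against 21.7% and 16.1% of all genes. Counts this close to those shares do not set the targets apart from other genes. Stra8, a germ cell gene named for its stimulation by retinoic acid, fell to 1.78 to 3.87 CPM at 24 h, against 16.5 to 42.4 CPM at 0 h (log2 -3.23 ± 0.16, SE; edgeR Benjamini-Hochberg adjusted p = 1.99e-06). Cdx1, a homeobox gene, was at 0 to 1.16 CPM at 24 h, against 3.13 to 8.18 CPM at 0 h (edgeR Benjamini-Hochberg adjusted p = 7.32e-05), with 0 counts in 2 libraries at 24 h. Lamb1, which encodes a laminin chain, rose by 1.80 ± 0.23 (log2, SE; edgeR Benjamini-Hochberg adjusted p = 0.000358). It was already at 113 and 116 CPM in iFoxA1 at 0 h, against 15.8 to 30.8 CPM in the other lines at 0 h. Tgm2, a transglutaminase, fell on average by 0.86 ± 0.18 (edgeR Benjamini-Hochberg adjusted p = 0.00480), but not in every line. In iFoxA1 it was at 22.7 to 39.1 CPM at 24 h, against 14.9 and 15.2 CPM at 0 h, and in iFoxL2 at 5.54 and 11.9 CPM at 24 h, against 8.71 CPM at 0 h. Against the 4 other lines at 24 h, iFoxA1 was higher by 2.43 ± 0.22 (edgeR Benjamini-Hochberg adjusted p = 0.000140). Without the iFoxC1 0 h library (34.0 CPM), the Tgm2 average change had an edgeR Benjamini-Hochberg adjusted p of 0.108.

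**Figure D5:**
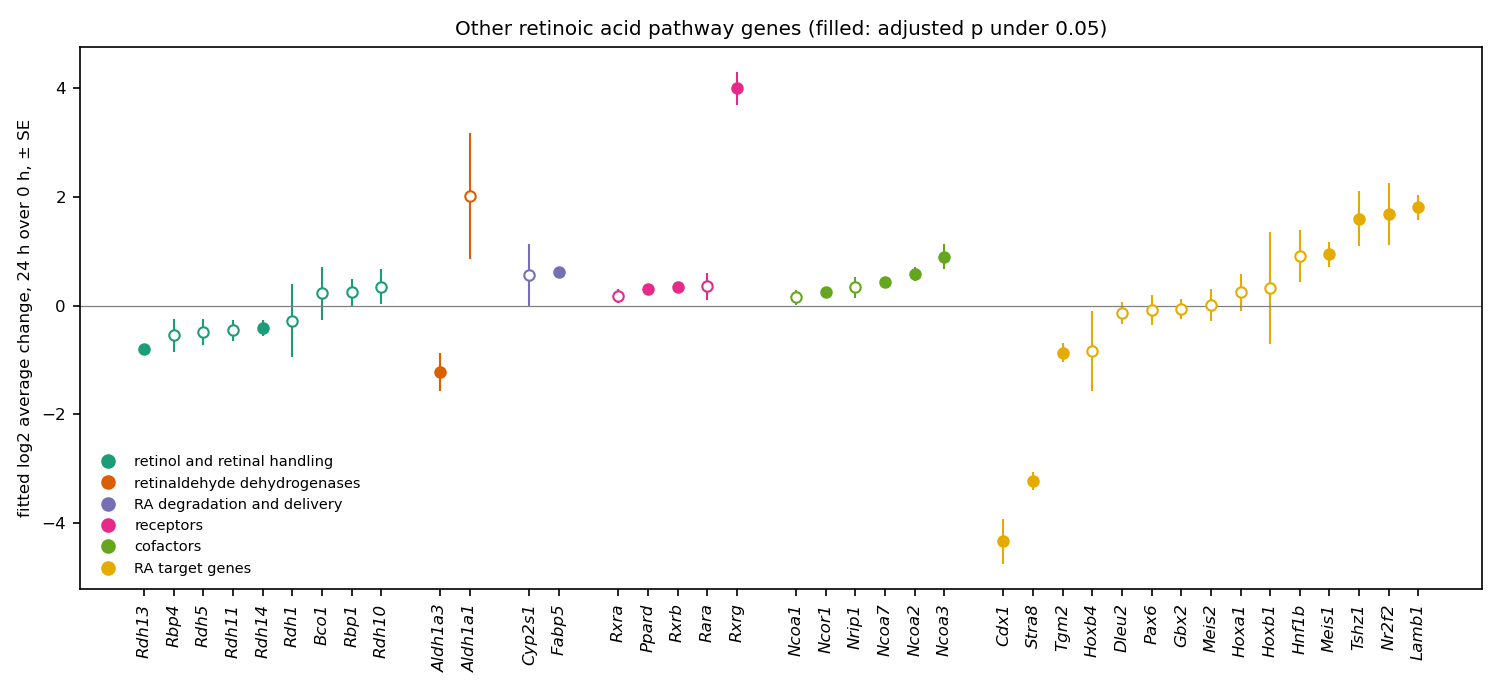
Fitted log2 average change, 24 h over 0 h, with its SE (y axis) for the other pathway genes tested, 1 left out (x axis, grouped and coloured by role); filled points have an adjusted p under 0.05. Cofactors lie above 0, retinol and retinal handling genes lie on both sides, and the target genes run from Cdx1 and Stra8 (-3.23) to Lamb1 (1.80).

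The genes whose log2 CPM followed a member most closely over the 17 libraries were found among 12679 protein-coding genes that averaged 1 CPM or more. For Cyp26a1 they were Mprip, Nfatc1 and Atf3 (Pearson r = 0.911, 0.906 and 0.901). For Dhrs3 they were Dusp16, Ank3 and Car13 (r = 0.900, 0.895 and 0.893), and for Rarg they were Smarcd1, Etl4 and Cox15 (r = 0.949, 0.945 and 0.943). The closest to the remaining members were Dnajb11 to Rarb (r = 0.931), Mak to Crabp2 (r = 0.910), Atp2b4 to Stra6 (r = 0.896), Dennd6a to Aldh1a2 (r = 0.862) and Emc1 to Crabp1 (r = 0.861). These correlations are descriptions of libraries that share lines, times and sequencing depth.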

How the data were processed

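Polyadenylated RNA was enriched from 1 µg of total RNA and sequenced from strand-specific libraries, per the labels. Per the submitters' processing notes, the authors used Salmon 1.4.0 and DESeq2 1.30.1 with mm10; the transcript annotation and strand setting are not given in the sources used here. The authors deposited an estimated count and a TPM per transcript and library. Of 137271 transcripts, 137225 matched GENCODE M21 and were summed to 53693 genes; the 46 others took at most 0.0133% of a library. Estimated counts were rounded to whole numbers. edgeR 4.0.16 (R 4.3.3; TMM, filterByExpr, quasi-likelihood) was fitted to all 17 libraries in 10 groups, with 7 residual degrees of freedom and a threshold of 0.05 on the Benjamini-Hochberg adjusted p over all genes tested. The code was tested on simulated data. CPM values use the TMM library sizes. A fold against 0 counts was taken against a floor of 3 counts; this and the 95% intervals cover counting error only.

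Libraries over 30 M counts form the second library set. Depth of 17.7 to 37.2 M counts leaves Rarb, Stra6 and Aldh1a2 with few counts each, and Cyp26a1 with few at 0 h. Alternatives were DESeq2 1.42.0, its size-factor scaling in edgeR, no filter, a filter of 1 CPM in 2 libraries, the replicate number as a block, a library set term, the first set alone, removal of both libraries low in their transgene, removal of each library, and length offsets. The last of these was chosen after seeing the data.

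The members and lists were chosen with earlier results of these data known. Of the further pathway genes, those named are the 6 that rose and the 6 that fell with the smallest adjusted p, with Aldh1a1, Cyp26b1 and Cyp26c1 added as relatives of members. The genes most like each member are those with the highest Pearson r of log2(CPM + 0.5). The level of the transgene in the fifth line and 1 pathway gene that rose are not reported here. Promoters are from RefSeq (GRCm38.p6) and coordinates of genes from GENCODE M21 (mm10).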

Additional observations from a re-analysis of the deposited data

Results flagged for a closer look

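Dhrs3 lay above its 0 h level in every 24 h library of iFoxA1 and iFoxP3 and below it in every 24 h library of iFoxC1 and iFoxG1. The test of the difference among the 5 changes gave an adjusted p of 0.0845 (edgeR F test, Benjamini-Hochberg), short of the threshold. In CPM, Aldh1a2 took the same sides in the same 4 lines. In iFoxP3 it was at 0.677 and 0.977 CPM at 24 h, against 0.645 CPM at 0 h. In iFoxG1 it was at 1.16 and 0.813 CPM at 24 h, against 1.23 CPM at 0 h. In TPM, however, iFoxG1 replicate 1 at 24 h was above 0 h (0.700 against 0.605 TPM). The Aldh1a2 test of the difference gave an adjusted p of 0.530 (edgeR F test, Benjamini-Hochberg). Of these lines only iFoxA1 has more than 1 library at 0 h, and the share of all genes that took these sides was not computed.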

How the results depend on the processing

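The number of members called, of 8, moved most with the settings that drop libraries, and so did the share of all genes called, which ran over the comparisons from 16.9% to 63.1% in the first library set alone (2 residual degrees of freedom), from 8.99% to 52.8% without both libraries low in their transgene and from 2.83% to 34.3% by DESeq2. On the first library set alone it was 4 for the average change, 4, 4, 4, 2 and 1 within iFoxA1, iFoxC1, iFoxG1, iFoxL2 and iFoxP3, 3 for the difference among changes, 7 among lines at 24 h, 7, 4, 2, 1 and 1 for those lines against the others, and 4 at 0 h. Without both libraries low in their transgene it was 4 for the average change, 3, 2, 1 and 2 within iFoxA1, iFoxG1, iFoxL2 and iFoxP3, 3 for the difference among changes, 5 among lines at 24 h, 1 and 2 for iFoxG1 and iFoxP3 against the others, and 2 at 0 h. DESeq2 called 2 within iFoxA1 (14.9% of all genes), 3 within iFoxC1 (17.6%), 1 for the difference among changes (10.1%) and 3 among lines at 24 h (22.0%). Against the others it called 5 for iFoxA1 (17.2%) and 1 each for iFoxG1 (5.69%), iFoxL2 (7.08%) and iFoxP3 (2.83%). At 0 h it called 2 (8.06%). A library set term gave 3 for the average change (40.7% of all genes), 2 within iFoxA1 (18.4%), 3 within iFoxC1 (18.8%) and 1 for the difference among changes (4.81%). It gave 3 among lines at 24 h (24.6%), 1 for iFoxG1 against the others (5.81%) and 2 at 0 h (3.52%). No filter gave 1 for the difference among changes (0.5% of all genes) and 2 for iFoxA1 against the others (6.16%). The stricter filter gave 1 for iFoxG1 against the others (3.8%). Length offsets gave 1 for the average change (30.2%), and 3 for iFoxA1 (10.2%) and 1 for iFoxC1 (1.93%) against the others. The causes were not tested.

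Same-numbered 0 h and 24 h libraries did not deviate together (r of 0.00 to 0.04), with only iFoxA1 libraries on the 0 h side. The other lines have 1 library at 0 h, so pairing over time could not be checked in them. At 24 h same-numbered libraries of the lines other than iFoxA1 did (0.553 to 0.757), and replicate 1 of iFoxA1 went with theirs (0.492 to 0.558), but replicate 2 of iFoxA1 went against theirs (-0.567 to -0.511), so the numbers are not taken as pairs; at 24 h they mostly follow the library sets. With the replicate block the count was 3 for the average change (39.7% of all genes), 1 within iFoxA1 (Crabp2, 14.5%) and 1 for the difference among changes (Dhrs3, 3.11%). It was 3 among lines at 24 h (21.4%) and 5 for iFoxA1 against the others (23.5%). For iFoxG1 (5.06%) and iFoxL2 (8.12%) against the others it was 1 each (Dhrs3). No share of all genes is given for the runs without 1 library that follow.

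Without 1 library at a time the count ran from 1 to 3 for the average change, from 0 to 2 within iFoxA1 and within iFoxC1, was 1 within iFoxG1, ran from 0 to 1 within iFoxL2 and was 0 within iFoxP3. It ran from 0 to 1 for the difference among changes, from 2 to 6 among lines at 24 h, from 1 to 5, 0 to 3, 0 to 1, 0 to 4 and 0 to 0 for iFoxA1, iFoxC1, iFoxG1, iFoxL2 and iFoxP3 against the others, and from 0 to 1 at 0 h.

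Signs reversed for 3 fitted average changes that were not called. Crabp1 was at -0.11 with the block, -0.12 with the set term, -0.18 in the first set, -0.082 without both low libraries, and from -0.14 to 0.12 without 1 library. Aldh1a2 was at 0.023 with no filter and from -0.26 to 0.41 without 1 library, and Dhrs3 from -0.87 to 0.19. The log2 ratio of mean TPM over all libraries, 24 h over 0 h, which weights lines by their libraries, also had the other sign from the fitted change for Crabp1 (-0.0056), Stra6 (-0.64), Aldh1a2 (0.19) and Dhrs3 (0.41). Of all values recomputed, 953 kept their direction and side of the threshold, 77 moved, 61 became weaker, 8 became stronger and 20 reversed.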
